A study of Saccharomyces cerevisiae with 4 samples.

Results

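The genes described here are the 10 that carry sulfate into the budding yeast cell and reduce it to sulfide, taken from the 6212 rows of the deposited array values by their systematic names. All 10 have a row, and 9 of them had a value on all 4 arrays. In pathway order they are the sulfate permease genes SUL1 (YBR294W) and SUL2 (YLR092W), the sulfate-activating enzymes MET3 (YJR010W) and MET14 (YKL001C), the reductases MET16 (YPR167C), MET5 (YJR137C) and MET10 (YFR030W), the siroheme genes MET1 (YKR069W) and MET8 (YBR213W), and the phosphatase gene MET22 (YOL064C).

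Yeast takes up sulfate through 2 permeases, couples it to ATP, phosphorylates the product to phosphoadenylyl sulfate (PAPS), and reduces PAPS to sulfite and then to sulfide, from which homocysteine, methionine and cysteine are made. Sulfite reductase needs siroheme, and the reduction of PAPS leaves a nucleotide by-product that has to be broken down. Transcription of most of these genes is known to be driven by the activator Met4, together with Cbf1, Met28, Met31 and Met32, and to be held back when methionine or cysteine is plentiful.

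The study set a trk1 trk2 double mutant of Saccharomyces cerevisiae, which lacks the genes of its high-affinity potassium transporters, against the wild type, both labelled as strain BY4741. BY4741 is a laboratory strain of mating type a known to carry deletions of HIS3, LEU2, URA3 and MET17 (also called MET15), so that the wild type and the mutant alike need added methionine or another organic sulfur source; the sulfur source of the medium is not given in the sources used here. Both strains grew in log phase at 28 °C in Translucent K-free medium, which itself holds 15 µM potassium, with 50 mM KCl added, up to an A600 of 0.6. RNA of the mutant and of the wild type was hybridised together on each of 4 two-colour arrays, which come from 2 independent experiments with exchanged dyes, and neither the number of clones nor the marker that replaced each gene is given in the sources used here. Mutant cDNA was labelled with Cy5 for arrays 1 and 4, and with Cy3 for the remaining pair. Arrays 1 and 2 were read as experiment 1 and arrays 3 and 4 as experiment 2.

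Each value below is a ratio of mutant over wild type, read as a log2 value, so 1 means a doubling in the mutant. The cultures were measured whole, so a change in every cell and a larger one in some of the cells cannot be told apart. The labels do not give the base of the logarithm, and each fold rests on base 2. Array 4 stood apart from the rest, with correlations of 0.26 to 0.39 with the other arrays over all rows, against 0.53 to 0.79 among arrays 1 to 3. Between 4690 and 5403 rows were filled on each array, 4255 of them on every array. The deleted TRK1 read −6.126 on array 1 and −4.601 on array 4, and the deleted TRK2 read −4.226 on array 4, its sole value.

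Of the 9 sulfate genes with 4 values, 7 rose in the mutant and 0 fell in limma's moderated test on the experiment means at an adjusted p under 0.05, and all 9 were above 0 on every array. Those that rose were MET14, MET16, MET10, MET5, MET3, SUL2 and MET1, by 5.74-fold down to 2.37-fold. MET22 and MET8, the remaining genes on 4 arrays, were 1.39-fold and 1.29-fold above the wild type in the mean and did not pass. Without the adjustment, 8 of the 9 were higher at a p under 0.05 and 0 lower, MET22 being the added gene. By that unadjusted limma rule 312 of all 4255 genes were higher and 549 lower, and 745 were above 0 on all 4 arrays. Among all 4255 genes tested, 1.62% rose and 1.74% fell by the same rule. The median of the 9 log2 ratios was 1.69, beside −0.04 for all genes tested.

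**Figure D1:**
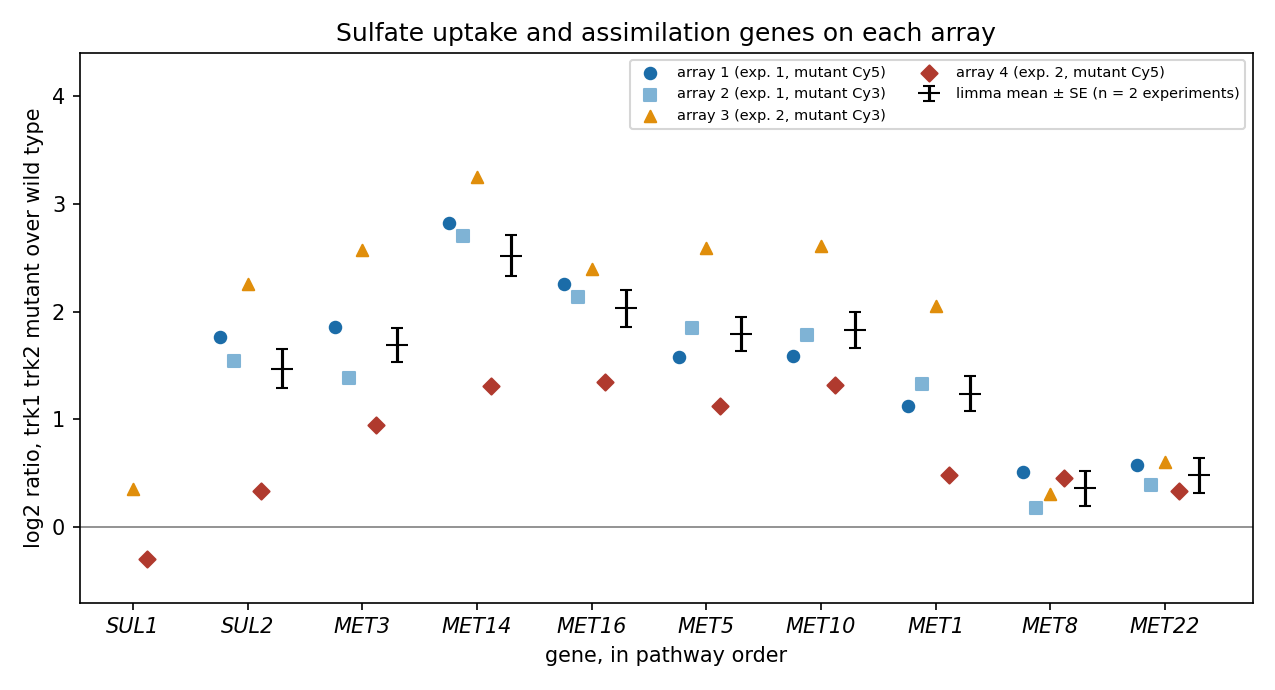
Log2 ratio of mutant over wild type (vertical axis) of the 10 sulfate genes in pathway order (horizontal axis), with 1 symbol for each array and a bar for limma's mean ± SE over 2 experiments. The 7 genes from SUL2 to MET1 all peak on array 3 and are lowest on array 4, MET8 and MET22 stay between 0.181 and 0.601, and SUL1 has values on arrays 3 and 4 alone.

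Uptake was represented by the genes of the 2 high-affinity sulfate permeases. SUL2 read 1.761, 1.542, 2.261 and 0.332 on arrays 1 to 4. Every array placed it higher in the mutant, but array 4 far less so than the other 3. Its mean of 1.47 ± 0.18 (limma's SE, n = 2 experiments) is a 2.78-fold rise, with a 95% interval of 2.07 to 3.74 and an adjusted p of 0.0132 in limma. Here and below, SE and interval come from the experiment means, so the gap between arrays of 1 experiment does not enter them. For SUL2 the SD over 4 arrays was 0.82, and array 4 lay below the interval's lower end of 1.05 in log2. SUL1 was empty on arrays 1 and 2, and read 0.357 on array 3 and −0.292 on array 4. Its signs differ between the arrays that list it, and since both were read as experiment 2 it has no replicate and was not tested. On those 2 arrays SUL2 was higher than SUL1 by 1.904 and 0.624 on the log2 scale. Cross-hybridisation between these related permease genes could not be assessed from the ratios.

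The activation of sulfate takes 2 enzymes. MET3, ATP sulfurylase, read 1.857, 1.388, 2.568 and 0.947 on arrays 1 to 4. It was higher in the mutant on each array and rose 3.23-fold (log2 ratio 1.69 ± 0.16, limma adjusted p = 0.0057). MET14, the adenylylsulfate kinase that forms PAPS, read 2.826, 2.702, 3.245 and 1.313. It rose 5.74-fold, with a 95% interval of 4.19 to 7.87 (log2 ratio 2.52 ± 0.19, limma adjusted p = 0.00298), the highest mean among the sulfate genes and the fourth of all 4255. MET14 was above MET3 on all 4 arrays, by 0.969, 1.314, 0.677 and 0.366 on the log2 scale. The difference averaged 0.83 ± 0.44 (SD, n = 2 experiments), which was not tested.

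The reductive steps rose as well. MET16, PAPS reductase, read 2.252, 2.132, 2.391 and 1.349 on arrays 1 to 4. It had the narrowest spread of the 7 genes that rose (SD 0.47 over 4 arrays), and its mean was 4.09-fold above the wild type (log2 ratio 2.03 ± 0.17, limma adjusted p = 0.00366). MET5, the beta subunit of sulfite reductase, read 1.582, 1.852, 2.595 and 1.126. MET10, the alpha subunit, read 1.586, 1.786, 2.608 and 1.321. The subunits followed each other closely, with MET5 minus MET10 at −0.004, 0.066, −0.013 and −0.195 on the log2 scale. Their rises were 3.46-fold for MET5 (1.79 ± 0.16, limma adjusted p = 0.00443) and 3.54-fold for MET10 (1.83 ± 0.17, limma adjusted p = 0.00479).

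Siroheme is the iron-containing cofactor of sulfite reductase, made from uroporphyrinogen III in steps catalysed by Met1, the methyltransferase, and Met8, which carries out the oxidation and the insertion of iron. MET1 read 1.12, 1.327, 2.049 and 0.482 on arrays 1 to 4. It was higher in the mutant on every array and rose 2.37-fold (log2 ratio 1.24 ± 0.16, 95% interval 1.81 to 3.11 as folds, limma adjusted p = 0.0175). MET8 read 0.51, 0.181, 0.309 and 0.452. All 4 values lie above 0, but its mean of 0.36 ± 0.16 did not pass (limma adjusted p = 0.279). Its 95% interval, 0.98 to 1.69 as folds, holds both no change and a rise by more than 1.5-fold. MET1 was above MET8 on each array, by 0.61, 1.146, 1.74 and 0.03 on the log2 scale, so the genes of this short branch nearly met on array 4.

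MET22 encodes the phosphatase that breaks down the by-product of PAPS reduction and is known in yeast as a target of lithium and sodium ions. It read 0.576, 0.39, 0.601 and 0.339 on arrays 1 to 4. The mean was 0.48 ± 0.16, a ratio of 1.39 with a 95% interval of 1.06 to 1.83, and it missed the threshold (unadjusted p = 0.0244, adjusted p = 0.172 in limma). The spread over arrays was small for MET22 and MET8, with SDs of 0.13 and 0.15, against 0.47 to 0.84 for the 7 genes that rose. With the other pairing of arrays MET22 passed (limma adjusted p = 0.048), as it did with the experiment as a random block (0.044).

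In the order of their mean log2 ratios the genes ran MET14, MET16, MET10, MET5, MET3, SUL2, MET1, MET22 and MET8. Each pair of neighbours but 1 in this order changed places on 1 of the 4 arrays, so their order is not fixed by these data. The exception was the pair of MET1 and MET22, where MET1 was higher on all 4 arrays, by 0.143 at the least and 1.448 at the most. On arrays 1 to 3 each of the 7 genes that rose read above 0.601, the highest value of MET22 or MET8 on any array. On array 4 the lowest of the 7, SUL2 at 0.332, was below both MET8 at 0.452 and MET22 at 0.339.

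The 7 genes had their highest and lowest arrays in common. Each was highest on array 3 and lowest on array 4, where their values ran from 0.332 to 1.349, against 2.049 to 3.245 on array 3. Arrays 1 and 2 lay between, with medians of 1.76 and 1.79 over the 7 genes, beside 2.57 on array 3 and 1.13 on array 4. Of the 69 genes that rose among all those tested, 43 (62.3%) were lowest on array 4, and of all genes on 4 arrays 23.8% were. Of the same 69 genes, 32 were highest on array 3. Ranked from the highest ratio down within each array's 4255 genes, MET14 stood 7th, 4th and 4th on arrays 1 to 3 and 74th on array 4. SUL2 stood 29th, 29th and 19th on arrays 1 to 3, and 1126th on array 4.

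**Figure D2:**
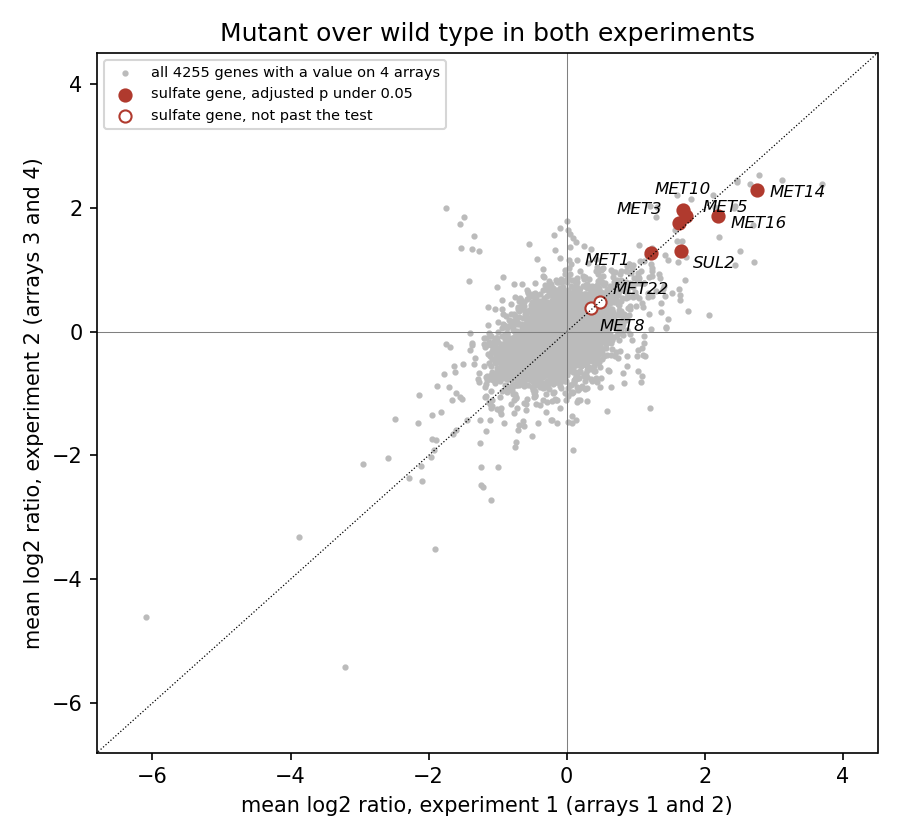
Mean log2 ratio of mutant over wild type in experiment 1 (horizontal axis, arrays 1 and 2) against that in experiment 2 (vertical axis, arrays 3 and 4), with 1 grey point for each of 4255 genes, red points for sulfate genes past the test, open red points for those that did not pass, and a dotted line of equal ratios. MET14 lies at 2.76 and 2.28, MET16 at 2.19 and 1.87, and MET8 lies close to the line at 0.35 and 0.38.

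The experiment means of the sulfate genes were close although the arrays within experiment 2 were not. Experiment 2 minus experiment 1 ranged from −0.48 for MET14 to 0.28 for MET10, and 5 of the 9 genes were higher in experiment 2. A limma fit with terms for experiment and dye called 0 of the 9 genes for the experiment term, and for that term 0 of them had an unadjusted p under 0.05. The fit called 0.0% of all genes for the experiment term, where 551 had an unadjusted p under 0.05. For the dye term it called 0 of the 9 genes and 0.0% of all genes, with 376 at an unadjusted p under 0.05. Mutant Cy5 minus mutant Cy3 was negative for 8 of the 9 sulfate genes, from −0.90 for MET14 to −0.04 for MET22, and 0.24 for MET8. Within experiment 1, array 1 (mutant Cy5) was above array 2 for SUL2, MET3, MET14, MET16, MET8 and MET22, and below it for MET5, MET10 and MET1. Within experiment 2, array 4 (mutant Cy5) was below array 3 for every gene but MET8. A dye difference and the standing apart of array 4 therefore cannot be told apart here. MET5 (−0.87, unadjusted p = 0.0394) and MET1 (−0.89, unadjusted p = 0.0469) were the 2 under 0.05 without adjustment for the dye term of this limma fit, each with an adjusted p of 0.527. The fit has 1 residual degree of freedom for each gene beside the prior, so it sets wide limits.

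The calls depended on array 3. Without it experiment 2 is array 4 alone, and limma called 0 of the 9 sulfate genes and 0 of all genes. At an unadjusted p under 0.05 in that fit were 385 of all 4255 genes and 7 of the 9 sulfate genes. The 7 genes then stood between 0.85 for MET1 and 2.04 for MET14, with adjusted p from 0.272 for MET10 to 0.548 for SUL2 in limma. Without array 4 the same test called all 7, with log2 ratios between 1.64 for MET1 and 3.0 for MET14. Of all genes, 2.26% rose in the fit without array 4. A count with no test, of genes at least 1.5-fold higher in the mean and above 0 on all 4 arrays, gave 7 of the 9 sulfate genes and 3.88% of all genes.

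Among genes for the making of methionine, cysteine and S-adenosylmethionine, most did not pass the test. In a list of 19 genes of methionine, cysteine and S-adenosylmethionine synthesis, 17 had 4 values, of which 1 rose and 0 fell in limma, and 6 were higher and 2 lower at an unadjusted p under 0.05. By the unadjusted rule 312 of all 4255 genes were higher and 549 lower. The 2 lower list genes were SAH1 (−0.64 ± 0.17) and ADO1 (−0.46 ± 0.17), each above 0 on array 4 alone. MHT1 read 1.047, 1.15 and 0.728 on arrays 2 to 4, and without a value on array 1 it was not in the main test. The median log2 ratio of the list was 0.27, beside −0.04 for all genes tested. HOM3, aspartate kinase, read 1.191, 0.879, 0.722 and 0.97 on arrays 1 to 4 and rose 1.92-fold (0.94 ± 0.17, limma adjusted p = 0.0434), a call that ended without array 1, 2 or 3 (adjusted p = 0.0664, 0.0775 and 0.395). STR3, cystathionine beta-lyase, read 1.704, 1.081, 1.179 and 0.202 and did not pass (1.04 ± 0.21, limma adjusted p = 0.0585). CYS3, cystathionine gamma-lyase, read 0.735, 0.217, 0.601 and 1.113, highest on the array where the sulfate genes were lowest, and did not pass (0.67 ± 0.18, limma adjusted p = 0.11). MET17, the gene for the enzyme that fixes sulfide and known to be deleted in BY4741, was empty on all 4 arrays. So were 584 of the 6212 rows, MET17 among them, and the empty row does not show the deletion.

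Among 6 genes of the Met4 system, 4 had 4 values, of which 1 rose and 0 fell in limma, with 1 higher and 1 lower at an unadjusted p under 0.05. By the same rules 1.62% of all 4255 genes rose and 1.74% fell, and 312 were higher and 549 lower without adjustment. MET28, a cofactor of Met4, read 1.989, 1.434, 1.721 and −0.044 on arrays 1 to 4. Arrays 1 to 3 placed it well above the wild type and array 4 did not, and its mean of 1.27 ± 0.24 is a ratio of 2.42 (limma adjusted p = 0.0473). The call of MET28 ended without array 1, 2 or 3 (adjusted p = 0.06, 0.0924 and 0.622), and was 0.00734 without array 4. CBF1, the DNA-binding partner, read −0.53 ± 0.16 with all 4 arrays below 0 (limma adjusted p = 0.143). MET31, one of the zinc-finger proteins that recruit Met4, read 0.20 ± 0.22, with 1.054 on array 4 against −0.21 to 0.119 on the others. MET4 itself was listed on 3 arrays, at 0.062, 0.325 and 0.204, and MET32 on array 1 alone, at 0.602.

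Of 9 genes for the uptake of other sulfur compounds and the export of sulfite, 5 had 4 values. Limma called 0 of these in either direction, against 3.36% of all genes. At an unadjusted p under 0.05, 2 of them were higher and 0 lower, against 312 and 549 of all 4255 genes. MMP1, the S-methylmethionine permease, read 1.388, 1.462, 0.58 and 0.56 on arrays 1 to 4 (1.0 ± 0.23, adjusted p = 0.0812). SSU1, the sulfite efflux pump, read 0.692, 0.9, 1.169 and 0.345 (0.78 ± 0.16, adjusted p = 0.0614). Like the 7 sulfate genes that rose, SSU1 was highest on array 3 and lowest on array 4. MUP3, a low-affinity methionine permease, read 1.019, 1.227, 0.333 and −0.711 (0.47 ± 0.31, adjusted p = 0.438), so its sign differed between arrays.

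Genes that supply electrons and the siroheme precursor gave no call. Thioredoxin passes electrons to the PAPS reductase, and of its 3 genes limma called 0, with 1 higher and 1 lower at an unadjusted p under 0.05. Over all 4255 genes limma called 3.36%, with 312 higher and 549 lower before adjustment. TRX1, a cytosolic thioredoxin, read −0.59 ± 0.16 (adjusted p = 0.114), TRX2, its close relative, −0.15 ± 0.17 (adjusted p = 0.663), and TRR1, thioredoxin reductase, 0.53 ± 0.16 (adjusted p = 0.143). Of the 4 genes of uroporphyrinogen III synthesis, from which siroheme and heme are both made, 3 had 4 values, and limma called 0, with 0 at an unadjusted p under 0.05. HEM1, HEM2 and HEM3, in the order of their steps, read −0.27 ± 0.18, −0.19 ± 0.17 and −0.16 ± 0.16. HEM4, without a value on array 2, read 0.326, 0.141 and 0.22 on arrays 1, 3 and 4.

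**Figure D3:**
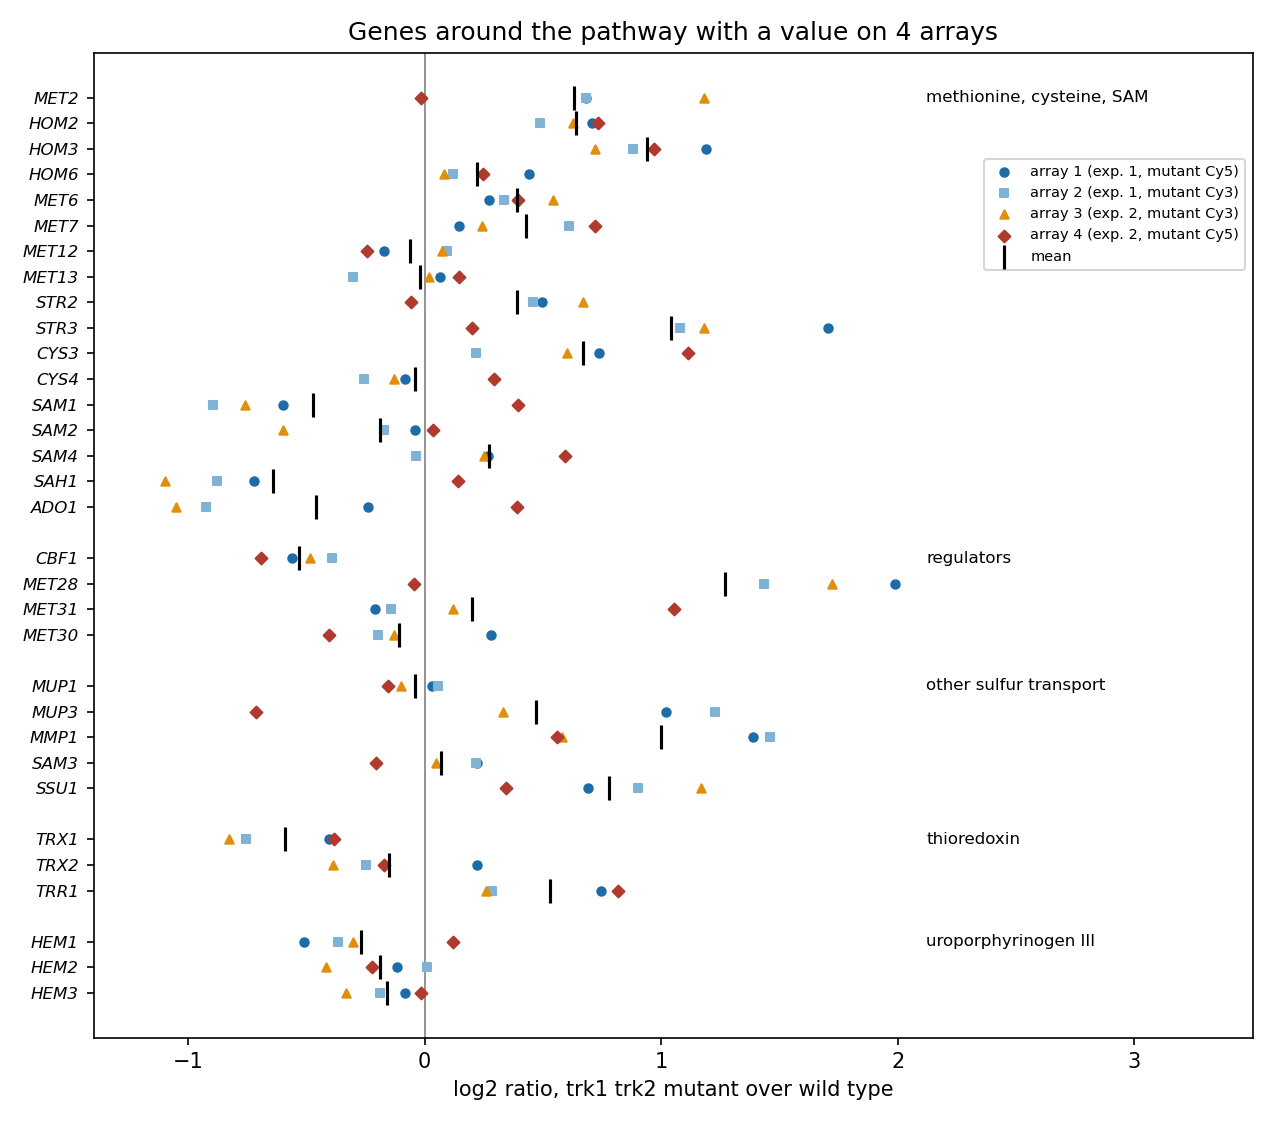
Log2 ratio of mutant over wild type (horizontal axis) on each array for the 32 genes of the 5 related lists that had 4 values (vertical axis, grouped by list), with a symbol for each array and a vertical bar for the mean. STR3, MET28 and MMP1 have the highest means, 1.04, 1.27 and 1.0, and the array 4 symbol of MET28 lies at −0.044, far below its other 3.

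Over the 5 related lists together, 2 of 32 genes with 4 values rose and 0 fell, with 10 higher and 4 lower at an unadjusted p under 0.05 in limma. Of all 4255 genes tested, 69 rose and 74 fell with the adjustment, and 312 were higher and 549 lower without it. The median log2 ratio of the 32 list genes was 0.14, against 1.69 for the 9 sulfate genes, and the difference between the lists was not tested.

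The genes next to the sulfate genes on the chromosomes had ratios near or below 0. None of the 20 adjacent protein-coding genes is itself a sulfate gene, and 13 of them had 4 values. Their mean log2 ratios ran from −0.87 to 0.27 with a median of −0.21. In limma 1 of the 13 was called, against 3.36% of all genes in either direction. It was NGR1, the RNA-binding protein gene beside MET8, at −0.464, −1.151, −0.96 and −0.919 on arrays 1 to 4 (adjusted p = 0.0473), chosen for naming after its value was seen. The neighbours of MET14, DID4 and VPS1, read −0.25 and −0.29, and those of MET16, MRP2 and NUT2, read −0.38 and −0.24.

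**Figure D4:**
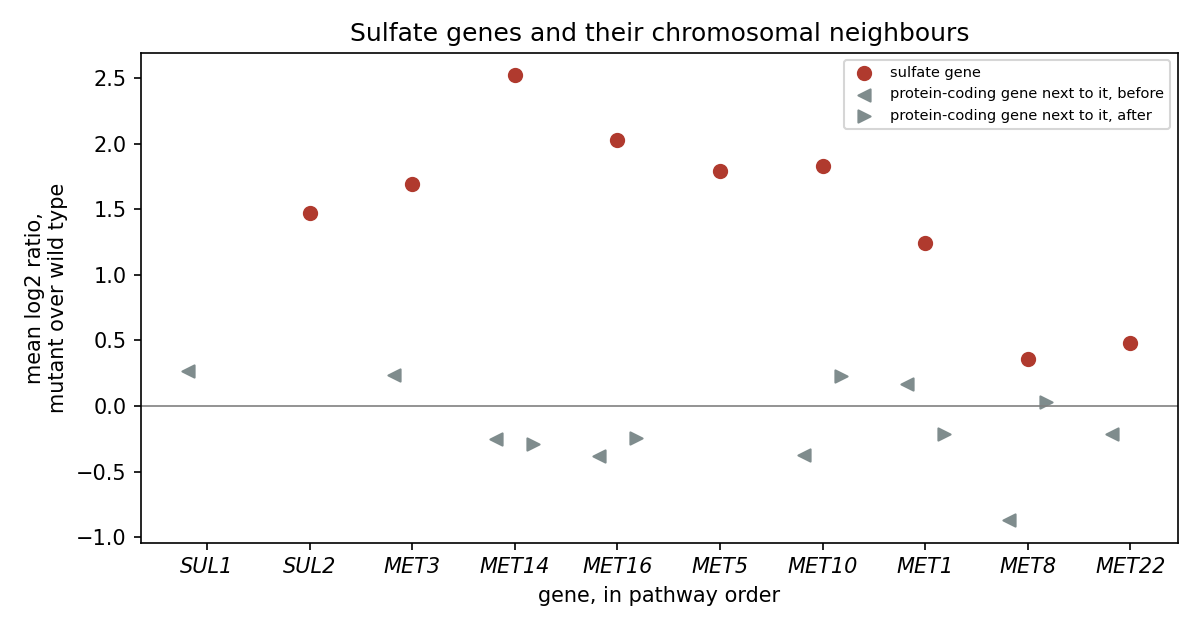
Mean log2 ratio of mutant over wild type (vertical axis) of the sulfate genes in pathway order (horizontal axis, circles) and of the protein-coding genes directly before and after each of them in chromosome order (triangles), for genes with 4 values. The neighbours lie between −0.87 and 0.27, and below the sulfate gene they adjoin wherever that gene has a mean (SUL1 has none).

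Outside these lists, the 5 genes whose 4 values lay nearest to the mean profile of the 9 sulfate genes (1.56, 1.48, 2.07 and 0.85 on arrays 1 to 4) were BUR6, CPA1, YHR112C, AGA2 and YJR029W. Nearness is the Euclidean distance over the 4 log2 ratios, which was 0.55 for BUR6 and 0.81 for YJR029W. BUR6, a subunit of a general transcription repressor, read 1.373, 1.485, 1.554 and 0.91. CPA1, a carbamoyl phosphate synthase subunit, read 1.916, 1.54, 2.093 and 0.309. BUR6, CPA1 and YJR029W were highest on array 3 and lowest on array 4, as were the sulfate genes that rose, while YHR112C and AGA2 were highest on array 1. The profile they were chosen by is itself highest on array 3 and lowest on array 4, so the choice favours genes of that shape. The likeness rests on 4 arrays, read here as 2 experiments, and was not tested.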

How the data were processed

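The values are the deposited log ratios of 4 two-colour arrays, in the authors' own processing, and were read here as log2. Per the labels, cDNA was made from 8 µg of total RNA, and spots under 120 µm or under 100 fluorescence units were not considered, which leaves cells empty. For normalization, centring, scanner and logarithm base, nothing is stated in the sources used here. Columns of opposite dye correlate positively and TRK1 and TRK2 are negative, so the direction was read as mutant over wild type. Array medians were −0.02, −0.09, −0.10 and 0.01. The number of arrays limits the precision.

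Arrays were paired by the shared wording of a label, each pair holding both dye orientations. The labels do not say which arrays form an experiment, so the SEs and intervals rest on this reading. They come from the experiment means and leave out the gap between the arrays of 1 experiment. Array 3 correlated at 0.67 with array 2 and at 0.39 with array 4, its partner in the pairing. With the experiment as a random block, limma's estimate of the correlation within pairs was −0.0461. Dye-swapped arrays were averaged, and the 2 experiment means were compared with 0 over all 4255 genes with 4 values, using limma 3.58.1 (lmFit and eBayes, R 4.3.3) and Benjamini-Hochberg adjustment at 0.05. The limma step alone was also run on simulated experiment means. These were drawn without arrays, dyes or pairing, so that run cannot speak to the averaging or the pairing. An exact sign-flip test on 2 experiments cannot go below p = 0.5, so p-values rest on limma's sharing of variance across genes (prior degrees of freedom 5.33). That the experiments were separate cultures rests on the word independent in the design text.

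Row names were matched to a RefSeq table of assembly R64 (5644 exactly, 18 ignoring case, 550 unmatched), used for symbols and gene order. Named genes are all 10 sulfate genes, TRK1 and TRK2, list genes past the test, the 3 with the largest absolute mean in each list, and the 5 nearest profiles. Any other gene was picked for naming with its value known. The sulfate genes and the lists were chosen with earlier results of these data known. Promoter and protein sequences were not used here.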

Additional observations from a re-analysis of the deposited data

Results flagged for a closer look

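Among 59 genes tested, 3 had an array far from the other 3, all of them chromosomal neighbours of sulfate genes, by Dixon's test at the 95% level. They were TDH2 beside MET3 (0.639 on array 3, against 0.065 to 0.128), VPS1 beside MET14 (−0.199 on array 1, against −0.336 to −0.316) and INP54 beside MET22 (−0.42 on array 4, against −0.17 to −0.132). TDH2 is uncertain, since near-identical copies can share its spot. Chance flags about 1 in 20 groups, and 6.77% of all genes with 4 values had such an array. None of the 9 sulfate genes did.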

How the results depend on the processing

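Of 12 alternatives, 9 called 7 of the 9 sulfate genes, the other pairing of arrays and the experiment as a random block called 8, and the fit without array 3 called 0, so the count ran from 0 to 7 when 1 array was left out. No sulfate gene changed sign. MET22 stood at 0.48 with the other pairing and with the random block, where it passed. Outside the fits that left out an array, SUL2 had the highest adjusted p of the 7 called genes, 0.0498 in limma with 4 arrays and a dye term. Over all genes, 255 rose and 473 fell with the other pairing, 163 and 250 with 4 separate arrays, 185 and 292 with the random block, 40 and 39 with at least 1 array of each experiment, and 165 and 284 with no test. With a dye term 142 fell, and 106 rose with centred arrays. Leaving out 1 array gave 0 to 96 higher and 0 to 121 lower genes. The methionine list had 4 higher genes with the other pairing, 4 separate arrays, the random block and no test, 2 with a dye term or centred arrays, 0 with at least 1 array of each experiment, and 0 to 2 with 1 array left out. The regulators had 0 with 4 separate arrays, a dye term, scaled arrays, robust shrinkage, at least 1 array of each experiment or no test, and 0 to 1 with 1 array left out. The uptake list had 2 with the other pairing, 4 separate arrays, the random block, centred arrays and no test, 1 with a dye term, and 0 to 1 with 1 array left out. Thioredoxin had 1 with the other pairing. The cause of these shifts was not tested. Without array 3, experiment 2 is array 4 alone.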
